A study of Mus musculus with 26 samples.

Results

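Effector regulatory T cells (eTreg) were compared with effector conventional CD4+ T cells (Teff) in bulk RNA-seq of sorted mouse cells. The 2 eTreg and 2 Teff wild-type libraries were picked by their cell labels and genotype and are 4 of the 26 libraries of a study of how the transcription factors Foxp3 and BATF shape Treg cells. All 24411 gene symbols of the count table were read, and 12227 passed a filter on low counts and were tested. The eTreg were sorted as CD4+, hCD2+, CCR7lo and CD62Llo, and the Teff as CD4+, hCD2-, CCR7lo and CD62Llo. Wild-type central Treg (cTreg; hCD2+, CCR7hi, CD62Lhi, CD44lo) and naive conventional cells (Tnaive; hCD2-, CCR7hi, CD62Lhi, CD44lo), with 2 libraries each, gave the same comparison in resting cells. A further pair of groups, wild-type Treg and Tconv with 2 libraries each, had been sorted on CD4 and hCD2 alone. The cell type field of the Tconv libraries reads Treg with an hCD2- gate, so their group was taken from their titles. All 12 libraries were made from spleen and lymph node cells of C57BL6/J animals with the Foxp3-IRES-hCD2 genotype, an allele that marks Foxp3-expressing cells with human CD2, and the cells were sorted fresh. Every group therefore carries the reporter allele, and hCD2 decided which cells were called Treg. Age, sex, the number of animals and whether the libraries of a group came from separate animals are not given in the sources used here. The p-values rest on a spread per gene estimated within groups over all 26 libraries of the study, mutants included. That spread may be technical.

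Treg cells hold back other immune cells. Foxp3, their lineage-defining factor, is known to repress the gene for the growth cytokine IL-2 and to raise Ctla4 and Il2ra, so that Treg cells consume IL-2 made by conventional T cells. After activation, Treg cells leave the lymphoid circulation, lose CCR7, and can take up factors such as T-bet or GATA3 that also drive the helper programs of conventional effector cells. The comparison asks which parts of the transcriptome separate the lineages once both are in the effector state.

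The eTreg libraries held 10005091 and 9915735 counted reads, and the Teff libraries 9780591 and 10392428. Levels are given as CPM, the reads of a gene scaled to a common library total, after scaling of library sizes by the trimmed mean of M values (TMM), and they are not corrected for gene length. The effector gates showed in the RNA of a homing receptor. Ccr7 stood at 88.7 and 84.9 CPM in eTreg and 90.6 and 90.0 CPM in Teff, below every cTreg and Tnaive library. The T cell genes Cd3e, Cd3g, Lck and Cd5 were detected at 604 CPM or more in all 4 libraries. Of 10 tested pan T cell markers, 1 was later called higher in eTreg (Cd2, log2 fold change 0.68). The 2 called lower were Cd4 (-0.45) and Cd28 (-0.44). Over all tested genes 8.21% were called higher and 7.26% lower. Xist was at 1752 CPM or more in the 4 libraries and the Y-linked Ddx3y at 0 reads in each.

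The 2 Teff libraries were less alike than the 2 eTreg libraries, and the Teff gate held transcripts that are not typical of conventional CD4+ T cells. Between replicates the chi-square of the counts per degree of freedom was 3.82 in eTreg and 7.67 in Teff. It was 22.7 in wild-type Treg and 21.7 in Tconv, whose libraries also enter the shared estimate of the spread. After addition of 0.5 CPM, 86 (9.68%) of the 888 genes later called lower in eTreg were at least 2-fold higher in Teff 1 than in Teff 2 and 19 (2.14%) were at least 2-fold higher in Teff 2. Over all tested genes these numbers were 151 and 150 (1.23% each). Most markers of plasmacytoid dendritic cells, conventional dendritic cells and NK and NKT cells that were called were higher in Teff, and they are described in full after the T cell genes. In bulk RNA, fewer cells of a type and less RNA per cell cannot be told apart. The part of these cells in the other genes lower in eTreg was not tested.

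A gene was called when its edgeR quasi-likelihood test had a Benjamini-Hochberg adjusted p below 0.05 over all 12227 tested genes. By this rule 1004 genes (8.21%) were higher and 888 (7.26%) lower in eTreg than in Teff. Of these, 545 were at least 2-fold higher (4.46% of tested genes) and 490 at least 2-fold lower (4.01%). The numbers of list members called, given below, are to be read against the 8.21% higher and 7.26% lower over all tested genes. Without Teff 1, 610 genes were called higher and 576 lower, and without Teff 2, 748 and 789. Without either Teff library in turn, 484 of the higher and 475 of the lower calls were made each time. The eTreg libraries lay above both Teff libraries for 30.7% of tested genes and below both for 30.2%, against which statements on overlap are to be read.

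The sort on hCD2, which marks Foxp3-expressing cells, set the difference in Foxp3, so its test is no separate evidence. Foxp3 reached 522 and 484 CPM in eTreg, against 0.293 and 0.274 CPM in Teff, which are 3 reads in each Teff library. The groups were far apart, with a log2 fold change of 10.74 ± 0.28 (edgeR adjusted p = 9.65e-15). Here and below, ± gives the log2 fold change divided by the square root of the F statistic of the edgeR test. It approximates a standard error and is not reliable for genes with few reads in a group, such as Foxp3 in Teff. Of the 19 transcription factors in a list of Treg factors and Foxp3 partners, all tested, 8 were higher in eTreg, Foxp3 included, and 2 lower. The median log2 fold change was 0.59 (0.00082 over all tested genes). Ikzf4, which encodes the Ikaros family factor Eos, a co-repressor partner of Foxp3, stood at 208 and 194 CPM in eTreg and 7.91 and 10.8 CPM in Teff (log2 fold change 4.42 ± 0.14, edgeR adjusted p = 1.14e-13). Its relative Ikzf2 (Helios) was at 1544 and 1510 CPM in eTreg and 277 and 442 CPM in Teff (2.08 ± 0.25, edgeR adjusted p = 7.34e-06). For both genes the eTreg and Teff libraries did not overlap. Gata1, a partner of Foxp3 better known from red cell development, was low and rose to 4.78 and 5.19 CPM in eTreg, against 0.586 and 0.730 CPM in Teff. Stat5a, which carries the IL-2 signal, rose by 0.59 ± 0.18 on the log2 scale (edgeR adjusted p = 0.0307), a call that ended without eTreg 1 (0.0887), eTreg 2 (0.181) or Teff 1 (0.268). Without any 1 of eTreg 1, eTreg 2 or Teff 1, 5 members of the list were higher.

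Members of the same list also fell. Satb1, a chromatin organiser that Foxp3 is known to repress, stood at 66.4 and 64.5 CPM in eTreg and 295 and 241 CPM in Teff (log2 fold change -2.03 ± 0.14, edgeR adjusted p = 6.43e-09). Ikzf1 (Ikaros) stood at 372 and 362 CPM in eTreg and 837 and 756 CPM in Teff (-1.12 ± 0.09, edgeR adjusted p = 5.62e-08). Both were lower in each eTreg library than in each Teff library. Stat5b, Ikzf3, Nfkb2 and Cbfb, the members of the highest CPM without a call, had log2 fold changes between -0.28 and 0.61 and edgeR adjusted p between 0.0609 and 0.396. In the fit of the 8 sorted subset libraries Nfkb2 (2.47e-05), Stat5b (0.00357) and Cbfb (0.00443) were called, and 12 members of the list were higher.

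**Figure D1:**
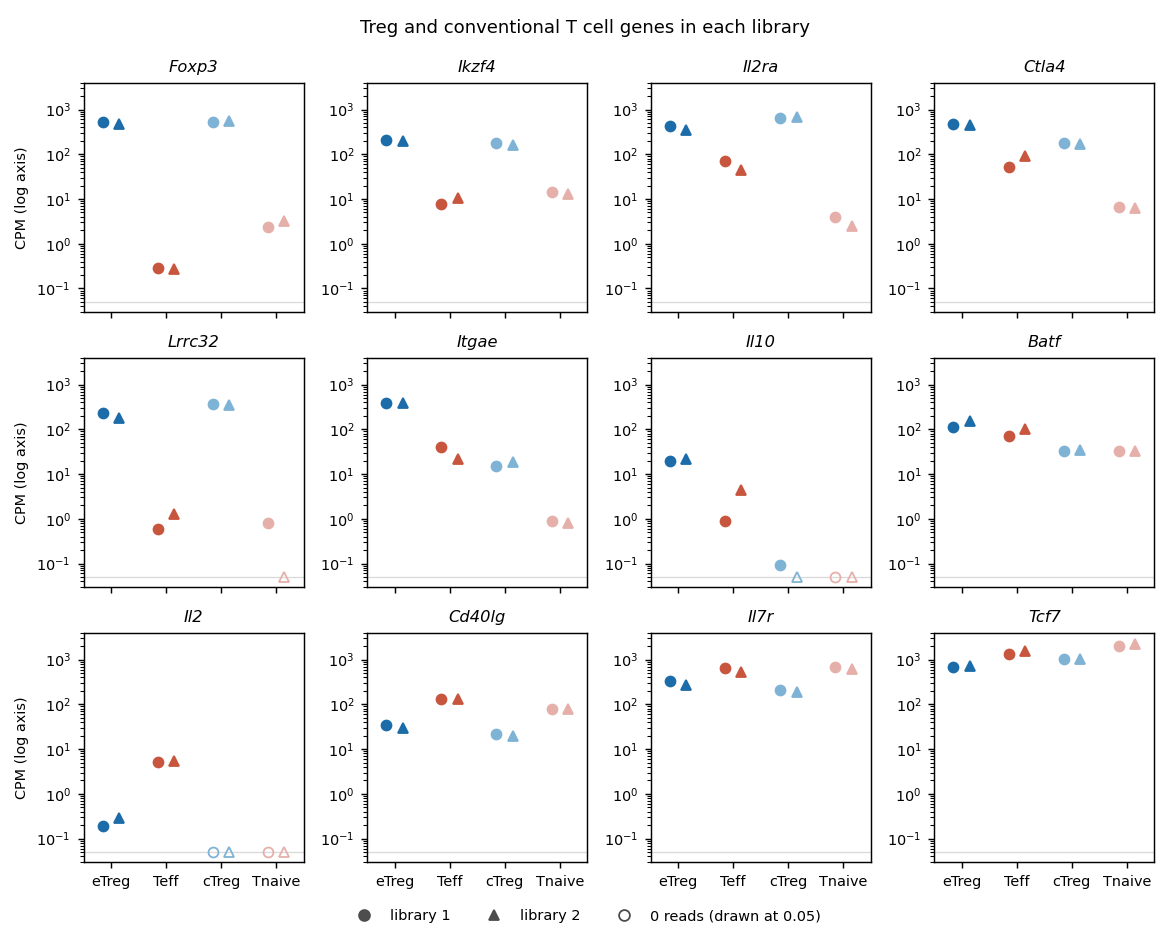
Level of 12 Treg and conventional T cell genes in each library, in TMM-scaled CPM on a log axis, with eTreg, Teff, cTreg and Tnaive from left to right, circles for library 1 and triangles for library 2; open symbols mark 0 reads and are drawn at 0.05. Foxp3, Ikzf4 and Lrrc32 separate the Treg groups from both conventional groups, Il2 has 0 reads in the 4 cTreg and Tnaive libraries, and Il2ra and Ctla4 are nearer to each other in the eTreg and Teff columns than in the cTreg and Tnaive columns.

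Batf, which encodes the AP-1 family factor in the study's title, was at 112 and 151 CPM in eTreg and 69.4 and 103 CPM in Teff. The lowest eTreg library was above the highest Teff library, but the difference did not pass the test (log2 fold change 0.60 ± 0.26, edgeR adjusted p = 0.145). Batf was called in a fit of 20 libraries, without wild-type Treg, BATF-knockout Treg and Tconv, that was chosen after seeing the data (edgeR adjusted p = 0.0441). It was not called by DESeq2 (adjusted p = 0.163). Nor was it called by edgeR without a filter (0.385) or in the fit of the 8 sorted subset libraries (0.106). With the replicate number as a block in those 8 it was called, as given at the end. Batf stood at 33.3 and 35.0 CPM in cTreg and 32.9 and 32.7 CPM in Tnaive, so the resting groups lay below both effector groups. Its usual partner Irf4 was higher in eTreg, at 151 and 143 CPM, against 76.3 and 95.4 CPM in Teff (0.78 ± 0.12, edgeR adjusted p = 0.000164). In a list of 21 tested AP-1 and IRF family members, 2 were higher (Irf4 and Irf5) and 2 lower (Nfe2l2 and Irf8). These numbers are near the shares over all tested genes (8.21% higher and 7.26% lower), and the median log2 fold change was 0.06. The AP-1 genes Junb and Jund had 416 and 508 CPM and 497 and 553 CPM in eTreg, against 221 and 856 CPM and 374 and 462 CPM in Teff, and neither was called. Junb was at a log2 fold change of -0.22, and at 1.07 without Teff 2.

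The IL-2 axis ran in opposite directions at the cytokine and at its high-affinity receptor chain. Il2 was read 2 and 3 times in eTreg and 54 and 61 times in Teff, which is 0.191 and 0.288 CPM against 5.28 and 5.57 CPM. It was low in Teff and close to the limit of detection in eTreg, and its log2 fold change was -4.44 ± 0.49 (edgeR adjusted p = 8.92e-06). Il2ra, the alpha chain that makes the receptor sensitive to low IL-2, stood at 425 and 343 CPM in eTreg and 69.5 and 44.0 CPM in Teff (2.76 ± 0.24, edgeR adjusted p = 1.42e-07). The signalling chains Il2rb and Il2rg did not pass the test: Il2rb was at 959 and 956 CPM in eTreg and 1191 and 938 CPM in Teff (edgeR adjusted p = 0.72), with overlapping libraries. Cish, a STAT5 target and inhibitor of the pathway, was at 251 and 213 CPM in eTreg and 77.9 and 56.9 CPM in Teff (1.78 ± 0.20, edgeR adjusted p = 2.97e-06). Of the 12 tested genes of the pathway, 5 were higher and 1 was lower, with a median log2 fold change of 0.52. Of the higher genes Socs2 (0.99 ± 0.25, edgeR adjusted p = 0.0102) lost its call without eTreg 1 (0.0809) or Teff 2 (0.105), and Stat5a as given above. Without Teff 1 or eTreg 1 the pathway had 3 and 2 higher genes.

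Ctla4, which takes costimulatory ligands off antigen-presenting cells, stood at 472 and 446 CPM in eTreg and 52.3 and 93.2 CPM in Teff (log2 fold change 2.66 ± 0.21, edgeR adjusted p = 3.55e-08). The 250 bases before the start of Il2, Ctla4 and Il2ra are shown because Foxp3 is known to act with NFAT on these genes, of which 1 fell and 2 rose. The sequences are from the RefSeq promoter table of GRCm38.p6, 5′ to 3′ on the gene's strand, at chr3:37125955-37126204 on the minus strand for Il2, chr1:60908775-60909024 on the plus strand for Ctla4 and chr2:11642542-11642791 on the plus strand for Il2ra. Capitals mark the NFAT core letters GGAAAA on either strand, which read TTTTCC on the other.
Il2: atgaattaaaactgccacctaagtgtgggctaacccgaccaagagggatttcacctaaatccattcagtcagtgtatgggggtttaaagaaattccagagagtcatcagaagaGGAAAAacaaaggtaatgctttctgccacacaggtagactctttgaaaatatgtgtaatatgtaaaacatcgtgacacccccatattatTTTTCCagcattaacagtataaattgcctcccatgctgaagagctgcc
Ctla4: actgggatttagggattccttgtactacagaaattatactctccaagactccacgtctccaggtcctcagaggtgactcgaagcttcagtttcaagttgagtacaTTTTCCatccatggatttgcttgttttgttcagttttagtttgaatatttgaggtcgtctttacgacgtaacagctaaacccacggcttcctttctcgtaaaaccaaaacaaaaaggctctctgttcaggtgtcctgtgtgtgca
Il2ra: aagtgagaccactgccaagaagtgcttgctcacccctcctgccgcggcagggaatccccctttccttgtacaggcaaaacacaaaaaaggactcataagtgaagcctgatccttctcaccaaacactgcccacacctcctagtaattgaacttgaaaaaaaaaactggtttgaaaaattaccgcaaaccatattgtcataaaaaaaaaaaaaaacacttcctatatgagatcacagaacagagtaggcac
The letters occur 2 times before Il2, with their first bases 137 and 48 bases before the start, 1 time before Ctla4, at 145 bases, and not in this window before Il2ra. Of the RefSeq windows of tested genes 18.1% hold them (2154 of 11898), as do 16.0% of the windows of genes called higher (159 of 996) and 17.4% of the windows of genes called lower (157 of 900). The letters TGANTCA of an AP-1 site, which overlap with none of the NFAT letters, occurred in 5.52% of windows of higher genes, 6.11% of windows of lower genes and 4.19% of windows of tested genes. A match describes letters in a window and no binding was measured.

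Genes that present or activate TGF-beta, a suppressive cytokine that is secreted in a latent form, were mostly higher in eTreg where they were called. Lrrc32, which encodes GARP, the receptor that holds latent TGF-beta on the Treg surface, was at 227 and 181 CPM in eTreg and 0.586 and 1.28 CPM in Teff (log2 fold change 7.74 ± 0.41, edgeR adjusted p = 5.2e-10). Itgae, the CD103 integrin chain that is induced by TGF-beta, was at 395 and 379 CPM in eTreg and 39.7 and 22.1 CPM in Teff (3.65 ± 0.20, edgeR adjusted p = 5.2e-10). Both were higher in each eTreg library than in either Teff library. Nrp1, a surface protein of thymic Treg cells, was at 560 and 591 CPM in eTreg and 168 and 273 CPM in Teff (1.38 ± 0.17, edgeR adjusted p = 1.1e-05), a call not made in the fit of the 4 libraries alone (0.0598). Tgfbr3, a TGF-beta co-receptor, fell to 24.5 and 25.7 CPM in eTreg, against 78.7 and 72.4 CPM in Teff (-1.59 ± 0.14, edgeR adjusted p = 1.01e-07). The cytokine Tgfb1 itself was at 240 and 251 CPM in eTreg and 199 and 200 CPM in Teff and was not called (edgeR adjusted p = 0.252), though it was in the fits of 4, 8 and 20 libraries (0.0141, 0.00239 and 0.00331). Of 15 tested members of 16 listed, 7 were higher and 2 lower, with a median of 0.54. Lrrc32 had a log2 fold change of 8.42 without Teff 2.

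Suppressive and repair factors that were called were all higher in eTreg. Of 13 tested of 14 listed, 11 were higher in eTreg and 0 were lower, with a median log2 fold change of 2.40, and the 2 without a call were Lgals1 and Vegfa. Il10, an anti-inflammatory cytokine, was at 19.4 and 21.2 CPM in eTreg and 0.879 and 4.38 CPM in Teff. Teff was lower in both libraries but the 2 differed, and the log2 fold change of 2.92 ± 0.63 (edgeR adjusted p = 0.00321) was 2.21 without Teff 1 (0.0616) and 4.51 without Teff 2. Ebi3, a subunit of the cytokines IL-27 and IL-35, was at 35.3 and 33.0 CPM in eTreg and 7.33 and 5.66 CPM in Teff (2.40 ± 0.26, edgeR adjusted p = 2.97e-06). Its IL-35 partner Il12a had 0 reads in eTreg and 5 in Teff over the 2 libraries of each group and was not tested. Penk, which encodes an opioid peptide precursor, was at 164 and 161 CPM in eTreg and 26.3 and 31.7 CPM in Teff (2.49 ± 0.25, edgeR adjusted p = 7.23e-07). Cd83 was at 226 and 271 CPM in eTreg and 26.9 and 51.2 CPM in Teff (2.67 ± 0.22, edgeR adjusted p = 8.15e-08). Each of these 3 genes was at least 4 times higher in the lower eTreg library than in the higher Teff library.

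The growth factor gene Hgf was read 144 times over the eTreg libraries and 3 times over the Teff libraries, a count ratio of 48.7 with an exact 95% interval of 16.3 to 239 that covers counting error only. Nt5e, the CD73 enzyme that makes adenosine, was at 609 and 682 CPM in eTreg and 208 and 318 CPM in Teff (1.29 ± 0.18, edgeR adjusted p = 4.49e-05), with an adjusted p of 0.0503 in the fit of the 4 libraries alone. Entpd1, the CD39 enzyme upstream of it, differed less, with 49.0 and 49.6 CPM in eTreg and 34.4 and 33.2 CPM in Teff (0.55 ± 0.18, edgeR adjusted p = 0.0408), and lost its call without any 1 of the 4 libraries (0.131 to 0.173). Without Teff 1, 7 members of the list were called higher, and in the fits of 4, 8 and 20 libraries 1 member was called lower.

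Among 13 tested inhibitory receptors 4 were higher and 2 lower, with a median of 0.42. Klrg1, a receptor of terminally differentiated lymphocytes, was at 64.0 and 68.8 CPM in eTreg and 4.98 and 2.37 CPM in Teff (log2 fold change 4.18 ± 0.43, edgeR adjusted p = 1.69e-06). Without Teff 1 it was 4.80. The collagen receptor Lair1 was at 1.82 and 0.864 CPM in eTreg and 28.3 and 9.85 CPM in Teff (-3.82 ± 0.43, edgeR adjusted p = 3.15e-06), with a value of -2.87 without Teff 1 and of -4.44 without eTreg 1, and an adjusted p of 0.0715 in the fit of the 4 libraries alone. Both receptors separated the groups, in opposite directions. The NK-associated receptor Cd160 was at 19.3 and 23.7 CPM in eTreg and 77.8 and 60.7 CPM in Teff (-1.69 ± 0.27, edgeR adjusted p = 0.000165). Pdcd1, the exhaustion and follicular marker PD-1, was at 313 and 354 CPM in eTreg and 170 and 330 CPM in Teff, and Lag3 at 157 and 264 CPM in eTreg and 94.0 and 220 CPM in Teff. For both genes Teff 2 lay well above Teff 1 and neither was called (edgeR adjusted p = 0.482 and 0.665).

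Of 13 tested receptors of the TNF family and costimulators 8 were higher and 4 lower, with a median of 0.68, and Tnfrsf25 alone had no call. Tnfrsf9 (4-1BB) was at 207 and 249 CPM in eTreg and 32.1 and 36.1 CPM in Teff (log2 fold change 2.74 ± 0.18, edgeR adjusted p = 5.08e-09). Tnfrsf4 (OX40) was at 286 and 317 CPM in eTreg and 46.5 and 68.4 CPM in Teff (2.39 ± 0.21, edgeR adjusted p = 1.46e-07), and Tnfrsf18 (GITR) at 296 and 349 CPM in eTreg and 99.8 and 110 CPM in Teff (1.62 ± 0.19, edgeR adjusted p = 7.21e-06). Tnfrsf1b (TNFR2) was at 736 and 891 CPM in eTreg and 228 and 264 CPM in Teff. In all 4 of these receptors the eTreg libraries lay above the Teff libraries. Cd40lg, the ligand through which helper T cells license B cells and dendritic cells, was at 34.5 and 30.2 CPM in eTreg and 131 and 132 CPM in Teff (-2.02 ± 0.14, edgeR adjusted p = 8.4e-09). Without Teff 1 or eTreg 2, 6 and 7 members were higher and 1 was lower.

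Receptors of the IL-1 family split by member. Il1rl1, which encodes ST2, the IL-33 receptor of tissue Treg cells, was at 121 and 101 CPM in eTreg and 12.5 and 5.84 CPM in Teff (log2 fold change 3.61 ± 0.39, edgeR adjusted p = 2.67e-06; 4.25 without Teff 1). The decoy receptor Il1r2 was at 45.2 and 87.5 CPM in eTreg and 4.01 and 11 CPM in Teff (3.13 ± 0.46, edgeR adjusted p = 8.27e-05, 0.0969 in the fit of the 4 libraries alone, and a value of 4.05 without Teff 2). Il18rap, a chain of the IL-18 receptor, was at 75.4 and 76.7 CPM in eTreg and 175 and 130 CPM in Teff (-1.0 ± 0.15, edgeR adjusted p = 7.5e-05), while the other chain Il18r1 was at 354 and 332 CPM in eTreg and 360 and 264 CPM in Teff and was not called (edgeR adjusted p = 0.751). Of 8 tested receptors 3 were higher and 2 lower, with a median of 0.22.

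Most called genes of the Th1 program were lower in eTreg. Of 14 tested genes of 17 listed, 8 were lower and 3 higher, with a median log2 fold change of -1.03, and the number lower was 8 without any 1 of the 4 libraries in turn, while the number higher was 1 or 2. Tbx21, which encodes the Th1 factor T-bet, was at 21.9 and 25.5 CPM in eTreg and 168 and 124 CPM in Teff (-2.62 ± 0.27, edgeR adjusted p = 1.05e-06). The eTreg level was still above cTreg (0.940 and 1.29 CPM) and Tnaive (0.509 and 0.399 CPM). Ifng, its main cytokine target, was at 8.51 and 6.05 CPM in eTreg and 25.3 and 46.6 CPM in Teff (-2.30 ± 0.36, edgeR adjusted p = 0.00012). Il12rb2, the inducible chain of the IL-12 receptor, was at 1.05 and 0.864 CPM in eTreg and 42.1 and 28.4 CPM in Teff (-5.18 ± 0.34, edgeR adjusted p = 4.12e-09). The second T-box factor Eomes was at 0.573 and 0.768 CPM in eTreg and 18.0 and 21.7 CPM in Teff (-4.86 ± 0.42, edgeR adjusted p = 1.08e-07). The chemokine gene Ccl5 was at 39.7 and 39.8 CPM in eTreg and 254 and 228 CPM in Teff, and the Th1 chemokine receptor gene Cxcr3 at 153 and 175 CPM in eTreg and 408 and 343 CPM in Teff. These 6 genes were lower in each eTreg library than in each Teff library. Il12rb1, the constitutive IL-12 receptor chain, was at 103 and 95.4 CPM in eTreg and 111 and 89.3 CPM in Teff and was not called (edgeR adjusted p = 0.995). Eomes is also a marker of NK cells, whose other markers moved with it, as described below.

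Genes of cytotoxic granules were called in both directions, with 6 lower and 3 higher of 12 tested and a median of -0.84. Nkg7 was at 20.5 and 21.7 CPM in eTreg and 176 and 130 CPM in Teff (log2 fold change -2.86 ± 0.19, edgeR adjusted p = 4.4e-09), Gzmk at 0.669 and 0.576 CPM in eTreg and 14.5 and 25.8 CPM in Teff (-4.99 ± 0.45, edgeR adjusted p = 5.61e-07), and the pore-forming Prf1 at 2.58 and 2.11 CPM in eTreg and 19.8 and 16.5 CPM in Teff (-2.95 ± 0.40, edgeR adjusted p = 2.59e-05). Gzmb (granzyme B), which Treg cells are known to use, was higher in eTreg, at 22.6 and 17.4 CPM in eTreg and 8.60 and 5.11 CPM in Teff (1.55 ± 0.37, edgeR adjusted p = 0.0064). It lost its call without eTreg 1 (0.0672) or Teff 2 (0.0968).

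Th2 and Th17 genes moved in both directions. In the Th2 list 3 of 10 tested genes were higher and 2 lower. The chemokine receptor gene Ccr8 was at 54.6 and 70.2 CPM in eTreg and 12.6 and 7.57 CPM in Teff (log2 fold change 2.63 ± 0.26, edgeR adjusted p = 6.94e-07), whereas the cytokine gene Il4 was at 3.82 and 5.09 CPM in eTreg and 12.6 and 12.6 CPM in Teff (-1.50 ± 0.38, edgeR adjusted p = 0.0111, and 0.128 without eTreg 1). Gata3, the Th2 factor, was at 262 and 251 CPM in eTreg and 192 and 183 CPM in Teff (0.45 ± 0.14, edgeR adjusted p = 0.0394), and its call ended without any 1 of the 4 libraries (0.132 to 0.206). In the Th17 list 3 of 10 were higher and 3 lower. Ccr6 was at 87.6 and 77.0 CPM in eTreg and 29.3 and 18.0 CPM in Teff (1.80 ± 0.23, edgeR adjusted p = 1.41e-05), and Ahr, a sensor of dietary and microbial ligands, at 84.3 and 82.2 CPM in eTreg and 33.8 and 32.0 CPM in Teff (1.34 ± 0.18, edgeR adjusted p = 1.84e-05). The cytokine Il17f was read 0 times in eTreg and 13 times over the Teff libraries, at least 4.27-fold lower in eTreg against a floor of 3 reads over the group (edgeR adjusted p = 0.00699, and 0.0534 to 0.0544 without eTreg 1, eTreg 2 or Teff 1).

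Of 12 tested follicular helper genes 4 were lower and 0 higher, with a median of -0.57, and 2 were lower in the fit of the 4 libraries alone. Tcf7, the factor of naive, memory and follicular T cells, was at 689 and 730 CPM in eTreg and 1306 and 1564 CPM in Teff (log2 fold change -1.02 ± 0.11, edgeR adjusted p = 2.72e-06). Il21, the cytokine of follicular helper cells, was at 5.35 and 5.19 CPM in eTreg and 42.1 and 102 CPM in Teff (-3.77 ± 0.52, edgeR adjusted p = 4.51e-05). Its level in Teff 2 was 2.42 times that in Teff 1, the reverse of the dendritic cell markers, and it was -3.00 without Teff 2 and not called in the fit of the 4 libraries alone (0.0706). Cxcr5, the follicular homing receptor, was at 145 and 159 CPM in eTreg and 179 and 259 CPM in Teff and was not called (edgeR adjusted p = 0.107).

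Over 27 cytokine and TNF family ligand genes, 21 of which were tested, 10 were lower in eTreg and 3 higher, with a median of -1.0. The 3 were Il10, Lta and Csf1. Fasl, the ligand of the death receptor Fas, was at 6.69 and 7.11 CPM in eTreg and 43.6 and 29.1 CPM in Teff (log2 fold change -2.39 ± 0.26, edgeR adjusted p = 1.97e-06). Lta was at 62.8 and 56.1 CPM in eTreg and 30.2 and 28.5 CPM in Teff (1.02 ± 0.14, edgeR adjusted p = 2.25e-05). Tnf was nearly level, at 46.7 and 44.8 CPM in eTreg and 46.7 and 51.0 CPM in Teff (edgeR adjusted p = 0.791).

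Homing receptors divided evenly, with 6 higher and 6 lower of 19 tested chemokine and egress receptors and 5 higher and 6 lower of 15 tested integrins. Cxcr6 was at 61.8 and 50.6 CPM in eTreg and 436 and 245 CPM in Teff (log2 fold change -2.60 ± 0.24, edgeR adjusted p = 3.05e-07). Ccr3 was at 7.74 and 8.07 CPM in eTreg and 0.0977 and 0.639 CPM in Teff (4.35 ± 0.66, edgeR adjusted p = 0.000132; 3.60 without Teff 1 and 6.18 without Teff 2). Itga6, a laminin-binding chain, was at 169 and 154 CPM in eTreg and 78.3 and 80.6 CPM in Teff (1.03 ± 0.13, edgeR adjusted p = 8.52e-06), while Itga1, a collagen-binding chain, was at 2.77 and 2.69 CPM in eTreg and 19.1 and 14.7 CPM in Teff (-2.62 ± 0.29, edgeR adjusted p = 8.31e-06). Itgal, a chain of the adhesion receptor LFA-1, was at 1895 and 1956 CPM in eTreg and 2242 and 2177 CPM in Teff and was not called (edgeR adjusted p = 0.224).

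Factors and receptors of naive and memory survival were lower in eTreg in 9 of 16 tested cases and higher in 1, with a median of -0.73. Il7r, the receptor for the survival cytokine IL-7, was at 336 and 265 CPM in eTreg and 650 and 525 CPM in Teff (log2 fold change -0.97 ± 0.28, edgeR adjusted p = 0.0243). The groups did not overlap, but the call ended without eTreg 1 (0.0524), eTreg 2 (0.198) or Teff 1 (0.185). S1pr1, which guides T cells out of lymph nodes, was at 174 and 164 CPM in eTreg and 279 and 276 CPM in Teff (-0.72 ± 0.12, edgeR adjusted p = 0.00033), and the activation and memory marker Cd44 at 293 and 302 CPM in eTreg and 507 and 486 CPM in Teff (-0.74 ± 0.13, edgeR adjusted p = 0.00058). Ly6c2 was at 0.573 and 0.288 CPM in eTreg and 43.5 and 19.1 CPM in Teff (-6.14 ± 0.51, edgeR adjusted p = 6.94e-08; -5.43 without Teff 1), and it is also expressed by plasmacytoid dendritic cells.

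Among transcription factors of effector differentiation 3 of 13 were higher and 3 lower. Id2, which holds back E proteins and supports Th1 and innate lymphoid fates, was at 89.9 and 81.3 CPM in eTreg and 593 and 408 CPM in Teff (log2 fold change -2.55 ± 0.21, edgeR adjusted p = 5.65e-08). Prdm1 (Blimp-1), a factor of terminal effector and IL-10-producing cells, was at 66.9 and 77.3 CPM in eTreg and 27.9 and 28.6 CPM in Teff (1.35 ± 0.24, edgeR adjusted p = 0.000553). Maf, another IL-10 regulator, was at 714 and 737 CPM in eTreg and 366 and 518 CPM in Teff, without a call (0.72 ± 0.24, edgeR adjusted p = 0.0543), and it was called by DESeq2 (0.0379) and in the edgeR fit of the 8 subset libraries (0.0375), as well as without Teff 2 (0.0371).

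Signalling genes of the T cell receptor were lower or not called. Of 20 tested, 8 were lower and 0 higher, with a median of -0.15. Themis and Txk, which tune signals from the receptor, stood at 51.1 and 43.2 CPM and 27.2 and 24.6 CPM in eTreg, against 232 and 203 CPM and 112 and 80.7 CPM in Teff (log2 fold changes -2.20 ± 0.21 and -1.90 ± 0.18, edgeR adjusted p = 4.31e-07 and 3.61e-07). Cd4 was at 1030 and 1074 CPM in eTreg and 1343 and 1523 CPM in Teff (-0.45 ± 0.11, edgeR adjusted p = 0.00608), a call that ended without eTreg 1 (0.0769) or Teff 2 (0.0948). Without Teff 2 or eTreg 1 the list had 4 lower genes. Of 18 immediate early genes, which mark recent receptor signals, 4 were higher (Myc, Egr2, Egr3 and Nr4a3) and Dusp2 was lower. Egr3 was at 97.9 and 104 CPM in eTreg and 58.7 and 62.7 CPM in Teff (0.73 ± 0.14, edgeR adjusted p = 0.00119). Nr4a3 lost its call without any 1 of the 4 libraries (0.0661 to 0.19), Egr2 without eTreg 2 (0.0556) or Teff 1 (0.0538) and Dusp2 without eTreg 1 (0.0811) or Teff 2 (0.0818). The summed level of dissociation stress genes was 1012 and 909.7 CPM in eTreg and 889 and 1152 CPM in Teff, which overlap.

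Over all tested genes 15.5% were called in either direction. Of 19 tested cell cycle genes 3 were lower in eTreg (Mcm2, Mcm3 and Ccnd3) and 0 higher, while 18 of the 19 values lay below 0 and the median was -0.48. Mki67, the proliferation marker, was at 87.0 and 84.4 CPM in eTreg and 120 and 91.9 CPM in Teff (edgeR adjusted p = 0.789). The number lower was 8 in the fit of the 4 libraries alone, 10 in that of the 8 subset libraries, 1 without Teff 1 and 0 without eTreg 1. Of 15 glycolysis genes 1 was higher (Slc16a3) and 1 lower (Pfkp), and of 16 cholesterol synthesis genes 1 was lower (Sqle), and each of these 3 calls ended without at least 1 of the 4 libraries. In the fit of the 8 subset libraries 3 glycolysis genes were higher and 3 lower, and 4 cholesterol synthesis genes were lower. Of 21 interferon response genes 4 were higher and 2 lower, with Gbp3 at 98.1 and 85.0 CPM in eTreg and 47.6 and 48.2 CPM in Teff (log2 fold change 0.93 ± 0.12, edgeR adjusted p = 9.34e-06). Without 1 library at a time 1 or 2 of these genes were higher.

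**Figure D2:**
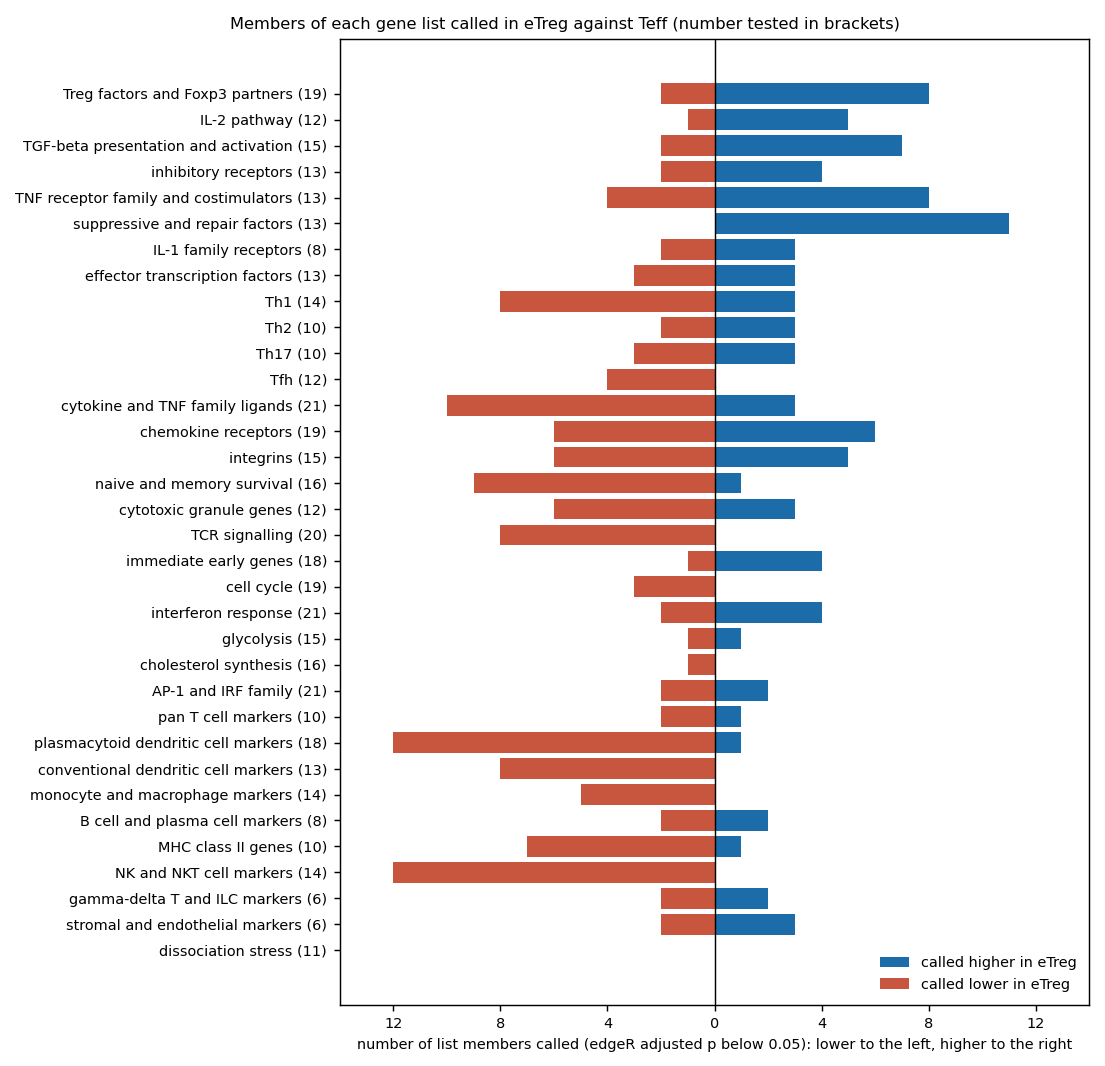
Number of members of each gene list called higher (right, blue) or lower (left, red) in eTreg than in Teff by the edgeR test at an adjusted p below 0.05, with the number of tested members in brackets; lists with under 6 tested members and the sex check are not drawn. Suppressive and repair factors lie on the right alone, with 11 members, and NK and NKT cell and plasmacytoid dendritic cell markers reach furthest to the left, with 12 each.

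Markers of innate-like lymphocytes were lower in eTreg where they were called. Of 20 listed NK and NKT cell markers 14 were tested, 12 were lower and 0 higher, with a median log2 fold change of -5.94, or -3.92 with the genes at 0 reads in eTreg set to their bound. The summed level of the list was 992 and 997 CPM in eTreg and 1678 and 1281 CPM in Teff, of which Il2rb made up 938 CPM or more in each library. Zbtb16, which encodes PLZF, the defining factor of NKT cells, was at 0.0956 and 0.288 CPM in eTreg and 107 and 67.5 CPM in Teff (-8.75 ± 0.46, edgeR adjusted p = 7.05e-09; -9.67 without eTreg 2, on 4 reads in eTreg in all). The receptor genes Klrk1 (NKG2D) and Klrb1c (NK1.1) were at 0.382 and 0.480 CPM and 6.31 and 7.87 CPM in eTreg, against 67.8 and 47.0 CPM and 126 and 84.0 CPM in Teff (-7.02 ± 0.45 and -3.88 ± 0.27, edgeR adjusted p = 3.17e-09 and 3.01e-08). Klrd1 was read 1 time in eTreg and 536 times in Teff, a count ratio of 528 with an exact 95% interval of 94.4 to 20891. Both Teff libraries were high in these genes, within 2-fold of each other. Ncr1, which defines NK cells, was not tested, at 0 reads in eTreg and 0.879 and 1.09 CPM in Teff. The Klr genes have near-identical relatives in a cluster, and reads that fit more than 1 of them may have been assigned unevenly.

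Markers of plasmacytoid dendritic cells, which secrete type I interferon and in mouse can carry CD4, were mostly lower in eTreg. All 18 listed markers were tested, 12 were lower in eTreg and 1 (Pacsin1) higher, with a median of -2.35. The summed level of the list was 596 and 714 CPM in eTreg and 1064 and 690 CPM in Teff, a sum that includes genes T cells also express, such as Lag3 and Pacsin1. Siglech, a defining surface receptor of these cells in mouse, had 0 reads in both eTreg libraries and 92.3 and 20 CPM in Teff, at least 382-fold lower in eTreg against a floor of 3 reads. Teff 1 held 4.62 times the level of Teff 2. The factor Spib was at 0.191 and 0.0960 CPM in eTreg and 30.1 and 7.66 CPM in Teff, and Bcl11a had 0 reads in eTreg and 17.1 and 3.92 CPM in Teff (at least 71.6-fold lower). Teff 1 was the higher library for all 3 genes. The factor Irf8, which T cells also express, was at 48.7 and 46.1 CPM in eTreg and 165 and 54.8 CPM in Teff, and its call (-1.21 ± 0.31, edgeR adjusted p = 0.00958) fell away without Teff 1 (-0.21, adjusted p = 0.698). Of the 18 markers, 11 were at least 2-fold higher in Teff 1 than in Teff 2. Siglech was called by DESeq2 (adjusted p = 5.36e-11) but not in the edgeR fit of the 8 sorted subset libraries (0.136). In the fit of the 4 libraries alone 2 of the 18 were called lower, and Siglech was not (edgeR adjusted p = 0.352); without Teff 1 the number was 10.

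Conventional dendritic cell and antigen presentation genes were also lower in eTreg. Of 13 tested dendritic cell markers 8 were lower and 0 higher, with a median of -3.63 and a summed level of 28.9 and 37.3 CPM in eTreg and 148 and 87.9 CPM in Teff. Itgax (CD11c) was read 1 time in each eTreg library and stood at 20.1 and 13.2 CPM in Teff, a count ratio of 173 with an exact 95% interval of 47.5 to 1433. Zbtb46, the defining factor of conventional dendritic cells, was not called, at 3.06 and 4.42 CPM in eTreg and 2.44 and 2.55 CPM in Teff (edgeR adjusted p = 0.382). Of 10 MHC class II genes 7 were lower and 1 higher. H2-Aa, H2-Ab1 and H2-Eb1 lay between 1.73 and 2.29 CPM in the eTreg libraries and between 46.5 and 90.1 CPM in the Teff libraries, with log2 fold changes of -5.15, -5.15 and -4.84 and edgeR adjusted p of 8.4e-09 or less. Class II genes have close relatives, so single values are uncertain. Without Teff 1 or eTreg 2, 4 of the 10 were lower.

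Among marker lists of other cell types, that of monocytes and macrophages had calls in 1 direction only, lower in eTreg. The rest had calls in both directions or few calls. Of 14 tested monocyte and macrophage markers 5 were lower and 0 higher, with a median of -0.16. Mpeg1, a gene that plasmacytoid dendritic cells share, was at 2.39 and 3.65 CPM in eTreg and 161 and 37.0 CPM in Teff. Its log2 fold change was -5.03, and -3.62 without Teff 1, with an edgeR adjusted p of 0.17 in the fit of the 4 libraries alone. The others were Tyrobp (-5.04, edgeR adjusted p = 4.05e-06), Fcer1g (-3.59, 0.000175), Spi1 (-3.44, 0.00157) and Cd68 (-1.03, 0.0239). Tyrobp too had no call in the fit of the 4 libraries alone. Lyz2, a defining monocyte gene, was at 2.29 and 3.84 CPM in eTreg and 5.08 and 3.47 CPM in Teff (edgeR adjusted p = 0.601). Of 15 listed B and plasma cell markers 8 were tested, 2 were lower and 2 higher, and the defining B cell gene Ms4a1 was at 0.977 CPM or less in all 4 libraries. The neutrophil and mast cell markers summed to 0.765 and 0.288 CPM in eTreg and 2.44 and 2.1 CPM in Teff. Cd8a was at 0.573 and 0.192 CPM in eTreg and 2.35 and 0.912 CPM in Teff (edgeR adjusted p = 0.0197, 0.211 without eTreg 2 and 0.366 without Teff 1). Cd8b1, the other of the 2 tested CD8 T cell markers, was not called (log2 fold change 0.35, edgeR adjusted p = 0.264). These 2 markers summed to 9.27 and 8.83 CPM in eTreg and 9.48 and 7.39 CPM in Teff. Of the 888 genes lower in eTreg, 51 (5.74%) stood in a non-T or innate-like marker list. Of 6 tested stromal and endothelial markers 3 were higher and 2 lower. The higher ones included Col1a2 (log2 fold change 4.22, edgeR adjusted p = 0.000737) and the lower ones Cdh5 (-4.14, 0.0011). Epcam, an epithelial gene that the list also held, was at 22.3 and 22.9 CPM in eTreg and 1.95 and 2.92 CPM in Teff (3.20 ± 0.29, edgeR adjusted p = 2.22e-07). Of 6 tested gamma-delta T and ILC markers 2 were higher and 2 lower, and the list summed to 182 and 146 CPM in eTreg and 59.3 and 34.2 CPM in Teff, with Il1rl1, described above, among its members. How far such cells account for lower Th1, cytotoxic or signalling genes in eTreg was not tested.

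**Figure D3:**
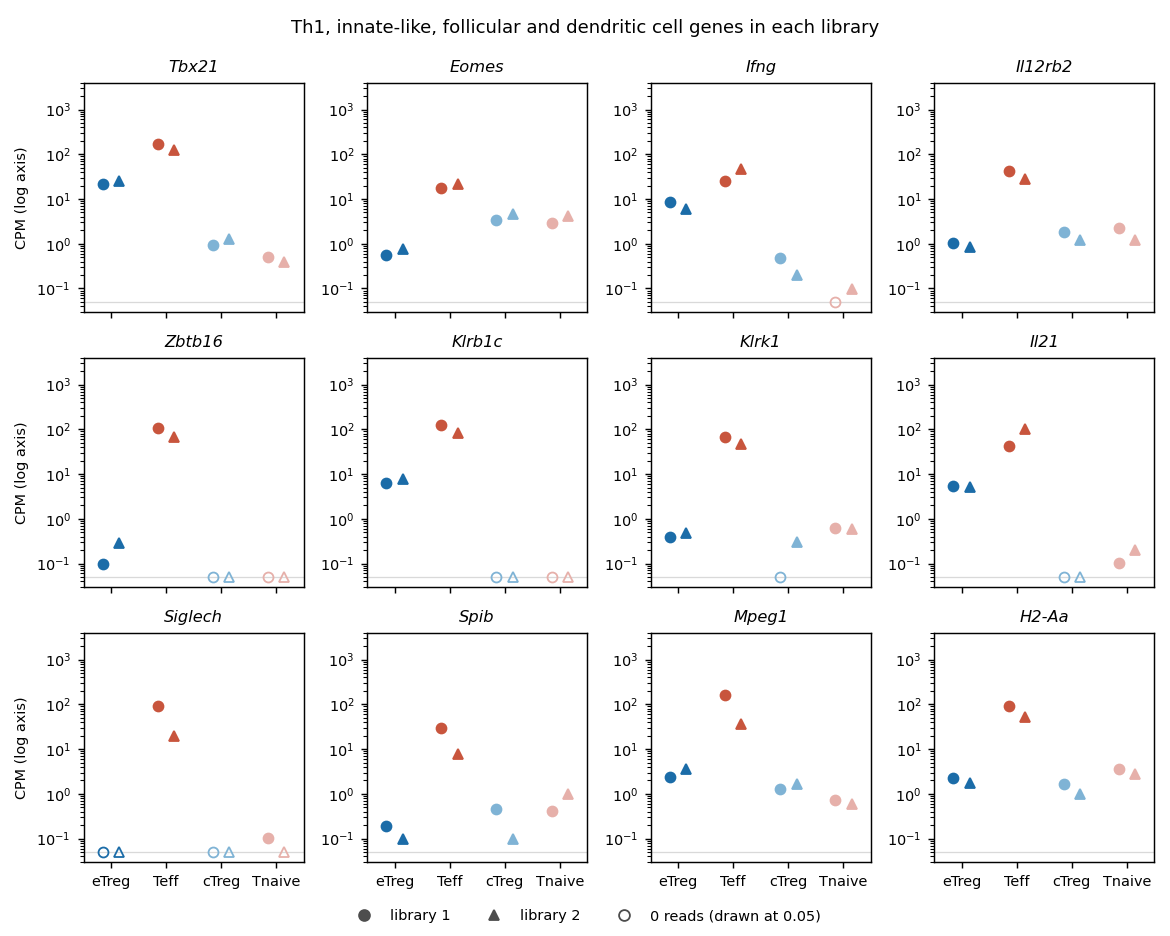
Level of 12 Th1, innate-like, follicular and dendritic cell genes in each library, in TMM-scaled CPM on a log axis, laid out as in the plot of Treg genes. Tbx21, Zbtb16, Klrb1c and Klrk1 lie close together in the 2 Teff libraries, Siglech, Spib and Mpeg1 are about 4-fold higher in Teff 1 (circles), and Il21 is higher in Teff 2 (triangles).

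The largest changes brought up genes outside the lists. The 12 called genes with the largest rise, among those with a mean of at least 5 CPM and no overlap, were Foxp3, Ky, Lrrc32, Hgf, Neb, Ppp1r3fos, Gbp2b, Slc7a10, Lama5, Ryr2, Noxa1 and Fsd1l. Ky, a muscle protease relative, was at 10.5 and 14 CPM in eTreg and had 0 reads in Teff, at least 86.6-fold higher against the floor of 3 reads. Neb, which encodes the giant muscle protein nebulin, was at 192 and 208 CPM in eTreg and 4.98 and 6.20 CPM in Teff (log2 fold change 5.15 ± 0.40, edgeR adjusted p = 3.45e-08). Ryr2, a calcium release channel best known from heart, was at 42.0 and 40.7 CPM in eTreg and 1.95 and 1.64 CPM in Teff (4.52 ± 0.50, edgeR adjusted p = 3.65e-06). These 3 genes are best known from muscle, and all were higher in each eTreg library. Slc7a10, an amino acid transporter, was at 34.9 and 35.8 CPM in eTreg and 0.879 and 1.73 CPM in Teff, with at most 1 read in any cTreg or Tnaive library. Gbp2b was at 40.9 and 27.7 CPM in eTreg and 0.684 and 1.82 CPM in Teff (4.74, and 5.62 without Teff 2), and its close relative Gbp2 could take or give reads. The antisense gene Ppp1r3fos was at 9.84 and 9.60 CPM in eTreg and 0.195 and 0.456 CPM in Teff (4.83, and 5.56 without Teff 2), and its reads cannot be told from those of the sense gene if strand was not used in counting. Lama5, Noxa1 and Fsd1l lay between 5.57 and 18.3 CPM in the eTreg libraries and below 1 CPM in the Teff libraries.

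Among the 12 largest falls were Siglech, Aqp9, Bcl11a, Clec10a, Adam23, Esm1, Epha2, Sulf2, Klrd1, Zbtb16 and Csf2rb2. Of these 7 had 0 reads in both eTreg libraries. Aqp9, a channel for glycerol and water that serves memory T cells, was at 36.2 and 24.1 CPM in Teff, at least 208-fold lower in eTreg. Sulf2, an extracellular sulfatase, was read 1 time in eTreg and stood at 30.5 and 23.6 CPM in Teff, a count ratio of 562 with an exact 95% interval of 101 to 22253. The endothelial gene Esm1 was at 2.74 and 9.03 CPM in Teff and Adam23 at 5.37 and 7.66 CPM. Clec10a and Epha2 were at 12.5 and 1.37 CPM and 8.99 and 1.64 CPM in Teff 1 and Teff 2. Csf2rb2 was likewise at 24.0 and 6.75 CPM. Aqp9, Adam23, Sulf2, Klrd1 and Zbtb16 were within 2-fold between the Teff libraries, and the other 6 named were not. In the fit of the 4 libraries alone Siglech, Bcl11a, Clec10a, Epha2, Esm1 and Csf2rb2 lost their calls, with edgeR adjusted p between 0.0554 and 0.352. In the edgeR fit of the 8 sorted subset libraries Siglech (adjusted p = 0.136), Clec10a (0.320) and Epha2 (0.164) lost theirs. Bcl11a, Esm1 and Csf2rb2 kept theirs there. Epha2 was not called by DESeq2 either (adjusted p = 0.0832).

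The same Treg against conventional contrast in resting cells used other libraries. In cTreg against Tnaive 967 genes (7.91%) were higher and 525 (4.29%) lower. Of the genes higher in eTreg than in Teff 475 were also higher in cTreg than in Tnaive, which is 47.3% of the effector list and 49.1% of the resting list, and 15 were lower there. Of the genes lower in eTreg 231 were also lower in cTreg, 26% of the effector list and 44.0% of the resting list, and 53 were higher. In Treg against Tconv, sorted on hCD2 alone, 1475 genes (12.1%) were higher and 817 (6.68%) lower. The overlap there was 670 higher genes, 66.7% of the effector list and 45.4% of the other, and 323 lower genes, 36.4% and 39.5%. In all 3 comparisons 431 genes were higher and 198 lower.

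The 2 contrasts were also tested against each other, gene by gene, as the difference of their log2 fold changes. This difference was called for 663 genes (5.42%), above 0 for 192 (1.57%) and below 0 for 471 (3.85%). The largest class, with 161 genes, was higher in cTreg than in Tnaive and not called in eTreg against Teff. A class of 145 was lower in eTreg than in Teff and not called in resting cells, 105 were higher in both, 27 were lower in both and 68 were called in opposite directions.

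Il2rb shows the first class. It was at 959 and 956 CPM in eTreg and 1191 and 938 CPM in Teff, against 951 and 915 CPM in cTreg and 26.4 and 25.9 CPM in Tnaive. Teff had the Treg level and Tnaive did not, and the difference of the log2 fold changes was -5.31 (edgeR adjusted p = 1.31e-09). The actin-binding Coro2a was at 226 and 236 CPM in eTreg and 141 and 109 CPM in Teff, against 348 and 348 CPM in cTreg and 3.06 and 1.70 CPM in Tnaive (-6.31, edgeR adjusted p = 1.73e-11). Unlike Il2rb, Coro2a was called higher in eTreg than in Teff (log2 fold change 0.88, edgeR adjusted p = 0.000185). The ATP receptor P2rx7, the homeodomain gene Hopx, Prr5l, Kcnk5, Chsy1 and Lmo4 were the other genes with the smallest p below 0. P2rx7 and Hopx were not called in eTreg against Teff. Prr5l (log2 fold change -2.58, edgeR adjusted p = 2.17e-07), Kcnk5 (-1.35, 7.57e-05) and Chsy1 (-1.20, 2.22e-06) were lower in eTreg than in Teff. Their differences of -8.61, -7.76 and -3.21 place their log2 fold changes in cTreg against Tnaive above 0. Of the 8 named, Lmo4 alone was lower in both contrasts, at 12.1 and 9.60 CPM in eTreg and 91.8 and 84.8 CPM in Teff, against 24.2 and 23.9 CPM in cTreg and 33.4 and 37.5 CPM in Tnaive. Among Treg genes Ikzf2, Il2ra, Nrp1 and Ctla4 had smaller differences in effector than in resting cells, by -4.73, -4.93, -3.71 and -2.07 on the log2 scale (edgeR adjusted p = 3.18e-07, 1.47e-07, 6.66e-08 and 0.000234). For Il2ra and Ctla4 this can be read from the levels: the conventional cells stood at 69.5 and 44.0 CPM of Il2ra in Teff, against 3.87 and 2.50 CPM in Tnaive, and at 52.3 and 93.2 CPM of Ctla4 in Teff, against 6.72 and 6.29 CPM in Tnaive.

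Foxp3 was among the 192 genes whose difference of log2 fold changes was above 0, at 3.17 (edgeR adjusted p = 0.000228). Its levels in eTreg (522 and 484 CPM) and cTreg (520 and 540 CPM) overlapped, while Tnaive held 2.34 and 3.20 CPM and Teff 0.293 and 0.274 CPM. Neb had a difference of 2.66 (edgeR adjusted p = 0.00362). The genes of the smallest p above 0 were Sepp1, Epas1, Emb, Myo10, Gtf2ird1, Sema4f, Mical3 and F2rl1. Epas1, which encodes the hypoxia factor HIF-2α, was at 22.7 and 22.1 CPM in eTreg and 18.8 and 16.6 CPM in Teff, against 5.74 and 4.76 CPM in cTreg and 36.4 and 38.0 CPM in Tnaive (3.16, edgeR adjusted p = 9.64e-07). Myo10, an unconventional myosin, was high in Tnaive alone, at 76.3 and 76.4 CPM, and between 4.30 and 8.46 CPM in the other 3 groups. Mical3 was higher in Treg cells of both states, at 111 and 93.1 CPM in eTreg and 17.6 and 15.6 CPM in Teff, against 123 and 117 CPM in cTreg and 73.2 and 68.2 CPM in Tnaive (1.86, edgeR adjusted p = 2.08e-05). Of the lists, the Th1 list held 6 genes below 0 and 1 above and the suppressive and repair list 4 below and 0 above.

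**Figure D4:**
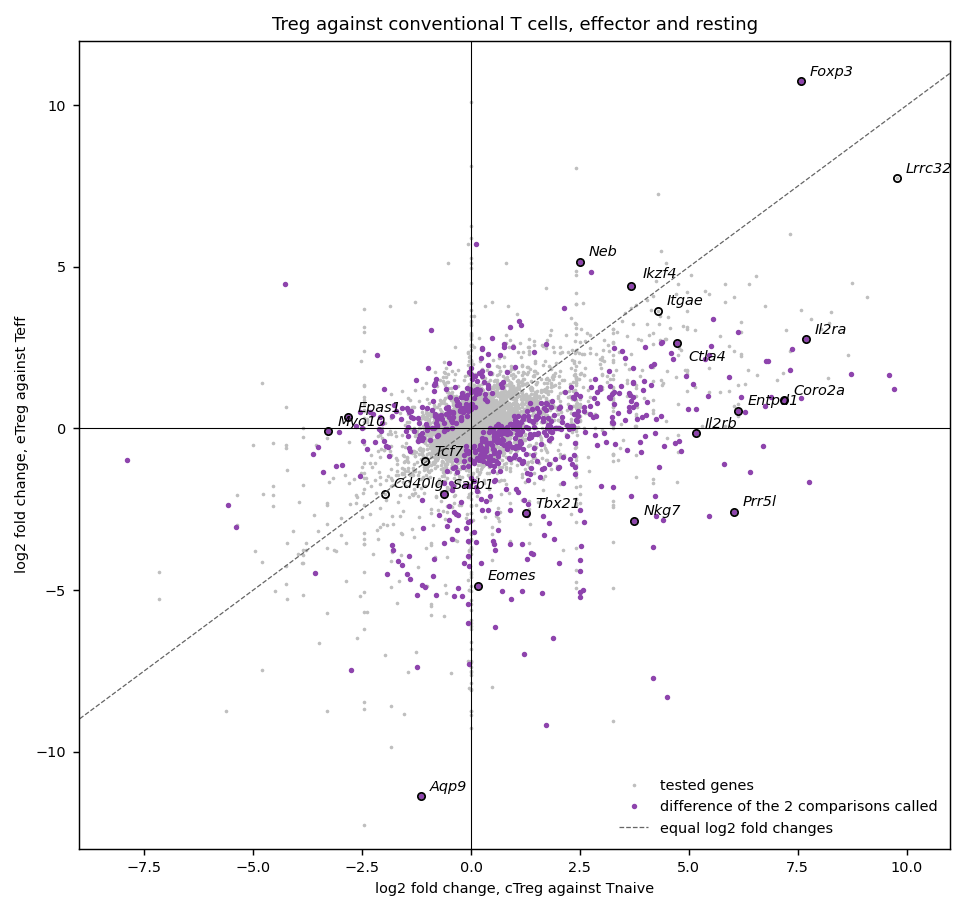
Log2 fold change of each of the 12227 tested genes in eTreg against Teff (vertical) and cTreg against Tnaive (horizontal); the 663 genes whose 2 fold changes differed by the edgeR test are purple, circled genes are named, and the dashed line marks equal fold changes. Foxp3 and Neb lie above the line, and Lrrc32, Itgae, Cd40lg and Tcf7 near it with no called difference. Far to the right, Il2rb lies near 0 on the vertical axis, and Coro2a (0.88) and Entpd1 (0.55), both called higher in eTreg, lie above 0. Tbx21, Nkg7 and Eomes lie below 0. The vertical stripes are genes with few or no reads in a resting group, whose fitted fold change depends on the prior count.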

How the data were processed

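RNA was measured by poly(A) RNA-seq of sorted cells, and the authors deposited raw read counts per gene symbol for 26 libraries in 13 groups of 2. Per the submitters' processing notes reads were aligned to mm10 with STAR 2.6.1c. No source used here gives the counting tool or its strand setting. The labels' protocols name 2 library kits without saying which library used which, so antisense genes and close relatives are uncertain. The deposited count table held 4 columns that match no sample, and these were not used.

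From the counts, genes were filtered with filterByExpr at a minimum count of 10 and scaled by TMM, and 1 robust edgeR 4.0.16 quasi-likelihood model (R 4.3.3, limma 3.58.1) was fitted to all 26 libraries, so that groups share 1 estimate of the spread, with Benjamini-Hochberg adjustment over 12227 tested genes. The script was tested on simulated data. The totals of the 4 main libraries lay between 9780591 and 10392428 reads, and intervals and floors of 3 reads cover counting error only. DESeq2 1.42.0, other filters, scalings and sample sets were alternatives. The members and gene lists were chosen with earlier results of these data known. Named were 11 genes always, the 12 largest called changes each way at a mean of 5 CPM without overlap, up to 5 called and 4 uncalled members of each list, the 8 smallest p of the difference each way, 29 genes chosen after their values were seen, and untested markers named to show their levels. A few genes within this rule are not reported here.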

Additional observations from a re-analysis of the deposited data

Results flagged for a closer look

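These values cover 49 of the named genes: those named in every case, the largest changes and the genes of smallest p for the difference. In 24 of them the log2 fold change of eTreg over Teff differed from that of cTreg over Tnaive by the edgeR test of the difference at an adjusted p below 0.05, and each value here is that difference, positive where the eTreg over Teff value was the higher. Among genes named in every case these were Foxp3 (3.17), Il2ra (-4.93), Ctla4 (-2.07) and Tbx21 (-3.89), of which Foxp3 had few reads in Teff, so that its value is uncertain. Among the largest changes they were Neb (2.66), Ppp1r3fos (2.09), Aqp9 (-10.23) and Adam23 (-10.91), of which Aqp9 and Adam23 had 0 reads in eTreg, so that their fitted values depend on the prior count. The 8 genes of smallest p above 0 were Sepp1 (1.66), Epas1 (3.16), Emb (1.37), Myo10 (3.20), Gtf2ird1 (2.20), Sema4f (1.78), Mical3 (1.86) and F2rl1 (1.91). The 8 below 0 were Coro2a (-6.31), Il2rb (-5.31), P2rx7 (-3.21), Hopx (-3.28), Prr5l (-8.61), Kcnk5 (-7.76), Chsy1 (-3.21) and Lmo4 (-2.46). The last 2 sets were chosen by this same test, so their values describe it and are no separate support.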

How the results depend on the processing

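The counts of genes higher, lower and with a called difference between the effector and resting contrasts were 1004, 888 and 663. They were 1576, 1459 and 1183 in a fit of the 8 sorted wild-type libraries and 416, 406 and 336 in a test against a fold of 1.5. They were 1580, 1475 and 1230 in a fit of 20 libraries, without wild-type Treg, BATF-knockout Treg and Tconv, that was chosen after seeing the data. With 1 library left out at a time they ranged from 610 to 748, from 545 to 789 and from 426 to 608. DESeq2, its size factors, no filter, a filter at 5 CPM and a fit of the 4 libraries alone, which cannot give the difference, moved each by less than 1.5 times. No named gene that was called changed direction under these alternatives, while uncalled ones such as Junb did. Of up to 313 named genes tested 31 gained a call in the fit of 8 libraries, 23 in that of 4, 28 in that of 20 and 8 with DESeq2, and 10, 31, 0 and 2 lost one. With the replicate number as a block in the 8 libraries the counts were 2122, 1974 and 1922, 53 named genes gained a call (among them Batf, adjusted p 0.00879) and 3 lost one. Libraries of the same number deviated together (r of 0.11 to 0.30 over genes, 6 pairs of groups), but there are 2 numbers and the labels state no pairing. The cause of these moves was not tested. With 2 libraries a group, genes near the threshold depend on single libraries.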

Other observations

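The genes here were chosen after their values were seen, from the same eTreg and Teff comparison. Pde3b, which breaks down cyclic AMP and is known to be repressed by Foxp3, was at 12.1 and 10.4 CPM in eTreg and 286 and 212 CPM in Teff (log2 fold change -4.47 ± 0.18, edgeR adjusted p = 5.97e-12), and at 28.3 and 25.6 CPM in cTreg and 344 and 300.1 CPM in Tnaive. The Treg-associated receptor gene Gpr83 was at 61.4 and 54.2 CPM in eTreg and 3.03 and 3.74 CPM in Teff (4.08 ± 0.28, edgeR adjusted p = 7.36e-09). Both separated Treg from conventional cells in both states. Axl, a receptor tyrosine kinase for apoptotic cell ligands, and Pros1, which encodes its family's bridging ligand protein S, were at 148 and 178 CPM and 23.6 and 20.2 CPM in eTreg, against 32.2 and 31.7 CPM and 4.40 and 3.74 CPM in Teff (2.35 ± 0.20 and 2.43 ± 0.20).

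The laminin chain gene Lamc1 was at 131 and 139 CPM in eTreg and 18.5 and 15.5 CPM in Teff (2.99 ± 0.19, edgeR adjusted p = 2.75e-09), and the matrilin gene Matn2 at 42.2 and 38.6 CPM in eTreg and 3.13 and 4.01 CPM in Teff (3.49 ± 0.27, edgeR adjusted p = 3.01e-08). Ttn, which encodes the muscle protein titin, was at 415 and 377 CPM in eTreg and 56.1 and 46.7 CPM in Teff (2.95 ± 0.28, edgeR adjusted p = 5.22e-07). Sema4a was lower, at 34.1 and 30.2 CPM in eTreg and 241 and 173 CPM in Teff (-2.69 ± 0.19, edgeR adjusted p = 1e-08). Syk, a kinase of B cells and innate cells, was at 0.573 and 0.480 CPM in eTreg and 27.8 and 9.31 CPM in Teff, highest in the Teff library with more plasmacytoid dendritic cell markers (-5.11 ± 0.55, and -4.12 without Teff 1).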
